A study of Homo sapiens with 16 samples.

Results

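Nonsense-mediated decay (NMD) is the surveillance pathway that degrades mRNAs on which translation terminates too early. The helicase UPF1 is recruited to the terminating ribosome and is joined by UPF2 and by UPF3A or UPF3B, which link it to exon junction complexes left on the mRNA by splicing. The kinase SMG1, held in check by SMG8 and SMG9, then phosphorylates UPF1, and phosphorylated UPF1 recruits the endonuclease SMG6 or the adaptor SMG5. Many of the mRNAs encoding these factors are themselves targets of the pathway, so that factor levels and decay activity are known to be linked.

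The levels of the mRNAs for 9 UPF and SMG proteins (UPF1, UPF2, UPF3A, UPF3B, SMG1, SMG5, SMG6, SMG8 and SMG9) were examined in cells in which cytoplasmic cap methylation was inhibited. The 9 genes were taken by symbol from the 60107 genes in the count tables. The rule used no measured value, but earlier results of these data were known when the genes were chosen. All libraries came from U2OS, a human osteosarcoma line, here carrying the tetracycline repressor (U2OS-TR). The transgene line was a single clone, picked for its high expression, with a doxycycline-inducible ΔN-RNMT. RNMT is the enzyme that methylates the guanosine cap, and ΔN-RNMT is a form lacking the N-terminal part, altered in its S-adenosylmethionine binding site and restricted to the cytoplasm. Control denotes uninduced cells of that clone (n = 5) and Induced denotes the same clone after 24 h with doxycycline (n = 5). Parental U2OS-TR cells without the transgene formed the No Dox (n = 3) and With Dox (n = 3) groups, which measure the effect of doxycycline alone. Cytoplasmic RNA was profiled with 3′ tag libraries, which count one region near the poly(A) site of each mRNA. Fewer copies of an mRNA in all cells and its loss from some cells cannot be told apart in such bulk libraries.

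The transgene libraries held 12527183 to 23251834 counts in genes and the parental libraries 1473286 to 3214808. The lines were sequenced on different instruments, so that line and instrument cannot be told apart. RNMT, which serves as the check of the labels, was at 55.6 to 112.5 CPM (counts scaled to the size of the library) in Control and 265.8 to 458.5 in Induced, a log2 fold change of 2.22 (edgeR, adjusted p = 0.00805). No Control library reached the lowest Induced library for RNMT. The highest Control was Control 5 (112.5 CPM), while Control 1 to 4 were at 55.6 to 74.58 CPM. Control 5 and Induced 2 stood apart from their groups on the first principal component, which carried 78.9% of the variance among the 10 transgene libraries: Control 5 scored 33.93 and the other Controls −101.6 to −45.32, and Induced 2 scored −13.54 and the other Induced libraries 57.44 to 71.41. Results that rest on these libraries are therefore given with and without them. The mesenchymal markers VIM (104.4 to 576.3 CPM) and COL1A1 (45.24 to 505.6 CPM) and the osteoblast regulator RUNX2 (2.45 to 20.7 CPM) were detected in every library, ALPL reached at most 1.21 CPM, and SP7 and BGLAP had 0 counts throughout.

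Among the 9 mRNAs, SMG5 was higher in Induced than in Control cells (1.93-fold), and SMG9 (1.85-fold) and SMG6 (1.39-fold) were lower. SMG8 had the highest fold change of the 9 (2.83-fold higher) but did not pass the test. None of the core factors UPF1, UPF2, UPF3A and UPF3B, nor the kinase SMG1, passed it. The 3 calls among 9 factors stand beside a background of 39.8%, the share of the 13038 genes tested that edgeR's quasi-likelihood test called at an adjusted p below 0.05. Of all genes tested, 20.0% (2604) were called higher and 19.8% (2579) lower, and with total counts as library size 4022 were higher and 1401 lower. For all 9 mRNAs the ranges of the Control and Induced libraries overlapped, whereas they did not overlap for 7.30% of the genes tested. With doxycycline alone, in parental cells, none of the 8 mRNAs that could be tested was called.

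The study asks about mRNAs that lose and regain their caps, a group in which mRNAs with a terminal oligopyrimidine (TOP) start, a C followed by a run of pyrimidines, are of interest. The RefSeq start sites (GRCh38.p14) of the 3 genes that passed the test are therefore shown, 10 bases before the start in lower case and 15 bases from the start on in capitals. SMG5 is shown with both of its starts, and SMG6 with its most upstream start and with the one of its starts that begins with C. The first SMG5 start lies upstream of the GENCODE interval of the gene (chr1:156249224-156282825), and the second falls at the upstream end of that interval.
SMG5 (chr1:156291502-156291526, minus strand): ggcagtgagcATGCGCTCCGGCTCC
SMG5 (chr1:156282811-156282835, minus strand): aggaggagctGTCGCGGGCAGCCGC
SMG6 (chr17:2303771-2303795, minus strand): ccgcccgtctGTGGTGGTTTCCTGG
SMG6 (chr17:2236833-2236857, minus strand): tctctggaccCTGAAAACTCCTTTA
SMG9 (chr19:43754948-43754972, minus strand): cggcgagcgcATTCAGTTCTCGAGC

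A TOP-like start was taken as a C in first position followed directly by at least 4 pyrimidines. Of the 8 genes with a RefSeq entry, 0 had one at any listed start, against 1429 of 35116 single RefSeq start sites (4.07%). At so low a share, having none among so few genes does not set them apart. SMG8 had no entry. The second SMG6 start shown opens with C but has only 2 pyrimidines before the first purine. These annotated starts were not measured here, since the libraries read the 3′ end.

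UPF1 (ENSG00000005007, chr19:18831959-18868230, plus strand, 24 exons) is the ATP-dependent RNA helicase at the centre of the pathway. It was measured at 56.98, 60.11, 62.58, 55.66 and 38.22 CPM in Control 1 to 5 and at 34.23, 57.06, 36.16, 55.49 and 53.08 CPM in Induced 1 to 5. Control 5 was the lowest of its group and lay within the Induced range, and Induced 1 and 3 were lower than every Control. The fitted log2 fold change was −0.21 (95% interval −0.64 to 0.22), with an adjusted p of 0.393. Without Control 5 and Induced 2 it was −0.40 (adjusted p = 0.0616). In parental cells UPF1 was at 24.6, 35.36 and 35.04 CPM in No Dox and at 39.29, 37.88 and 26.89 in With Dox, a log2 fold change of 0.14 (−0.75 to 1.02).

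UPF2 (ENSG00000151461, chr10:11920022-12043170, minus strand, 22 exons) bridges UPF1 and UPF3. Its levels were 29.76, 33.21, 42.07, 25.65 and 28.5 CPM in Control and 33.04, 36.88, 31.28, 38.62 and 14.78 CPM in Induced. Apart from the low Induced 5, the groups covered much the same range, and the log2 fold change was −0.042 (−0.57 to 0.49, adjusted p = 0.897). The parental values were 36.9, 21.95 and 54.2 CPM without and 35.36, 36.29 and 20.37 CPM with doxycycline, a log2 fold change of −0.29 (−1.31 to 0.72).

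UPF3A and UPF3B are paralogs that bind the exon junction complex, UPF3B being encoded on the X chromosome and being the stronger activator of decay. UPF3A (ENSG00000169062, chr13:114281601-114305817, plus strand, 10 exons) was at 39.36, 43.79, 40.68, 39.49 and 54.67 CPM in Control and at 58.47, 49.86, 51.39, 61.38 and 34.79 CPM in Induced. Of the Induced libraries, 4 were above Control 1 to 4, while Control 5 was high and Induced 5 was the lowest of the 10. The log2 fold change was 0.23 (−0.15 to 0.62, adjusted p = 0.294). In parental cells UPF3A was at 36.9, 21.34 and 16.17 CPM in No Dox and at 17.14, 24.72 and 18.74 in With Dox, a log2 fold change of −0.28 (−1.32 to 0.75).

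UPF3A has 3 annotated pseudogenes, and reads could be split between it and them. UPF3AP2 had 15 to 202 counts in the transgene libraries and UPF3AP1 and UPF3AP3 had at most 8, beside 586 to 1332 counts for UPF3A itself, while in the parental libraries all 3 pseudogenes were at 0. Reads without a unique alignment were listed apart from the genes. They came to 0.5605 to 1.326 per gene count in the transgene line and 0.7734 to 1.445 in the parental line. How many of them came from UPF3A cannot be told, so the pseudogene counts do not bound the uncertainty in its level.

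UPF3B (ENSG00000125351, chrX:119834022-119852998, minus strand, 11 exons) was at 23.56, 26.84, 20.67, 24.05 and 16.4 CPM in Control and at 21.4, 30.06, 22.52, 25.07 and 12.59 CPM in Induced. The groups had nearly equal means, 22.31 ± 3.96 and 22.33 ± 6.38 CPM (SD, n = 5 each), and the log2 fold change was 0.0027 (−0.48 to 0.49). Its sign depended on the setting, turning in 11 of 19 alternatives. The parental values were 35.67, 16.46 and 24.85 CPM in No Dox and 21.43, 27.51 and 15.48 in With Dox, and the log2 fold change there was −0.24 (−1.27 to 0.78).

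The balance of the UPF3 paralogs was followed as their log2 CPM difference within each library, affected by scaling only through the added prior count. It was 0.74, 0.70, 0.97, 0.71 and 1.73 in Control 1 to 5 and 1.45, 0.73, 1.19, 1.29 and 1.46 in Induced 1 to 5. Control 5 had the highest value of all and Induced 2 lay among the other Controls. The means of 0.97 ± 0.44 and 1.22 ± 0.30 (SD, n = 5 each) differed by 0.25, which was not more than the spread between libraries (two-sided exact permutation test, p = 0.286, where 252 arrangements allow a smallest p of 0.00794). Without Control 5 the difference was 0.44 (exact p = 0.0397), so the call turned on Control 5. Without Control 5 and Induced 2 it was 0.56 (exact p = 0.0286, the smallest that 70 arrangements allow). These 2 libraries were picked after the data were seen and held values that crossed the groups. That p is therefore not separate evidence of a difference. The parental ratios were 0.048, 0.36 and −0.59 without and −0.31, −0.15 and 0.26 with doxycycline, and differed by −0.0022 (exact p = 1, where 3 against 3 cannot go below 0.1).

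SMG1 (ENSG00000157106, chr16:18804860-18926408, minus strand, 63 exons) is the kinase that phosphorylates UPF1. It was at 7.21, 9.36, 14.45, 8.42 and 9.50 CPM in Control and at 8.87, 14.82, 7.61, 13.87 and 12.71 CPM in Induced. The groups overlapped over most of their range, with a log2 fold change of 0.25 (−0.27 to 0.77, adjusted p = 0.411). In No Dox it was at 37.51, 10.36 and 14.97 CPM and in With Dox at 17.5, 15.95 and 8.96, a log2 fold change of −0.54 (−1.79 to 0.72) that rested on the high No Dox 1, without which it was 0.23. Of the 7 annotated SMG1 pseudogenes, SMG1P7 had 1 to 8 counts in the transgene libraries and the other 6 had none. Reads without a unique alignment are again not among these counts.

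SMG8 and SMG9 form a complex with SMG1 and restrain its kinase activity, and their fitted changes had opposite signs. SMG8 (ENSG00000167447, chr17:59209400-59215239, plus strand, 4 exons) was at 11.48, 8.95, 4.28 and 13.45 CPM in Control 1 to 4 and at 58.53 CPM in Control 5. In Induced 1 to 5 it was at 67.64, 28.46, 75.18, 50.51 and 52.54 CPM. Control 1 to 4 were all below every Induced library, and Control 5 alone lay inside the Induced range. The first principal component split the libraries in the same way. SMG9, SMG6 and SMG5 also split this way, as given below. How many of all genes do so was not counted, so the split is not shown to be particular to these factors. The log2 fold change of 1.50 ± 0.59 (SE, 0.21 to 2.79) had an adjusted p of 0.0597 and so missed the threshold. Without Control 5 it was 2.50 (adjusted p = 0.00041) and without Induced 2 it was 1.66 (adjusted p = 0.0439). SMG8 was also called by DESeq2 (adjusted p = 0.0194), with no filter (adjusted p = 0.0483) and with a replicate block, alone (2.01, adjusted p = 0.0235) or with GC offsets (1.89, adjusted p = 0.0323). It stayed uncalled in 12 of 19 alternatives. Its adjusted p was 0.071 with GC offsets alone and 0.0658 with 1 surrogate variable, where the log2 fold change was 0.69. Without any one library other than Control 5 and Induced 2 it was 0.0907 to 0.122.

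Parental cells carried SMG8 at 7.99, 59.75 and 41.62 CPM in No Dox and at 47.86, 112.5 and 26.08 CPM in With Dox. The groups overlapped, and the log2 fold change was 0.77 ± 0.69 (SE, −0.74 to 2.29, adjusted p = 0.997). The difference of 0.56 between the responses of the lines (−1.47 to 2.58, adjusted p = 0.74) did not pass the test. At 13 to 282 counts in the parental libraries, a change of the size seen in the clone was within the interval.

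SMG9 (ENSG00000105771, chr19:43727983-43754962, minus strand, 14 exons) was at 36.46, 39.12, 47.74, 29.67 and 19.26 CPM in Control and at 13.35, 24.51, 16.88, 17.65 and 20.6 CPM in Induced. Control 1 to 4 were all above every Induced library, and Control 5 fell inside the Induced range. SMG9 fell by 0.89 on the log2 scale (SE 0.24, adjusted p = 0.0203), from 34.45 ± 10.68 to 18.6 ± 4.19 CPM (SD, n = 5 each). In parental cells it was at 42.43, 28.04 and 36.23 CPM in No Dox and at 28.22, 12.76 and 33.41 in With Dox, a log2 fold change of −0.53 ± 0.47 (SE, adjusted p = 0.997). The responses of the lines differed by −0.59 (−1.63 to 0.46, adjusted p = 0.46).

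Within a library, the log2 ratio of SMG8 to SMG9 was −1.66, −2.12, −3.45, −1.14 and 1.60 in Control and 2.33, 0.21, 2.15, 1.51 and 1.35 in Induced. It was thus below 0 in Control 1 to 4 and above 0 in Control 5 and in every Induced library. The parental libraries held both signs in each group, with −2.28, 1.07 and 0.20 in No Dox and 0.74, 3.05 and −0.35 in With Dox. This ratio was chosen after its values were seen and is given as a description, without a test.

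**Figure D1:**
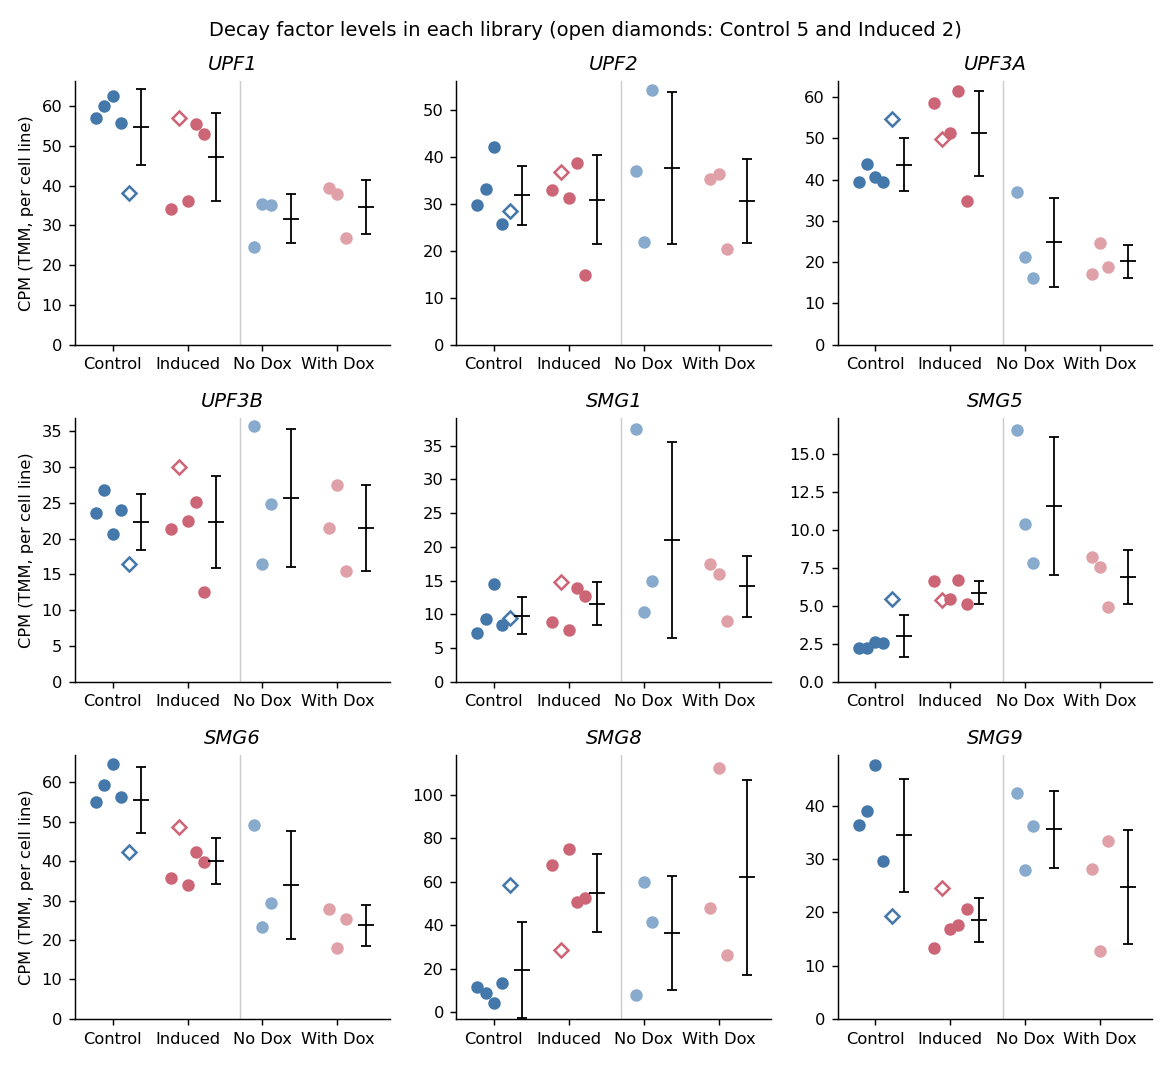
Levels of the 9 decay factor mRNAs in each library, in CPM on a linear axis, with TMM scaling done separately for the transgene line (Control, Induced) and the parental line (No Dox, With Dox). Each symbol is 1 library, the open diamonds are Control 5 and Induced 2, and black marks are the group mean with SD; for SMG8, Control 5 (58.53 CPM) sits among the Induced libraries while Control 1 to 4 lie at 4.28 to 13.45 CPM.

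SMG6 (ENSG00000070366, chr17:2059839-2303785, minus strand, 19 exons) is the endonuclease that cuts the target mRNA near the stop codon. It was at 55.05, 59.35, 64.47, 56.33 and 42.21 CPM in Control and at 35.65, 48.59, 33.88, 42.31 and 39.66 CPM in Induced. Again Control 1 to 4 were above every Induced library, and Control 5 lay between Induced values. SMG6 fell by 0.47 on the log2 scale (SE 0.16, adjusted p = 0.0362), from 55.48 ± 8.26 to 40.02 ± 5.82 CPM (SD, n = 5 each).

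With 49.19, 23.17 and 29.35 CPM in No Dox and 27.86, 17.94 and 25.26 CPM in With Dox, the parental difference in SMG6 was −0.51 ± 0.45 (SE, log2, adjusted p = 0.997), and the lines differed by −0.18 (−0.99 to 0.63, adjusted p = 0.794). This call depended on the processing more than the others: it held in 5 of 19 alternatives, and its adjusted p was 0.201 with total counts as library size, 0.148 with a GC offset and 0.0592 to 0.0926 without any one library other than Control 5 and Induced 2. HIC1, a gene on the opposite strand, overlaps the last exon of SMG6, and whether counting used strand is not given in the sources used here.

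SMG5 (ENSG00000198952, chr1:156249224-156282825, minus strand, 22 exons) binds phosphorylated UPF1 and recruits deadenylating and decapping enzymes. It was the least counted of the 9 in the transgene line, with 38 to 145 counts per library. Its levels were 2.24, 2.22, 2.61, 2.57 and 5.47 CPM in Control and 6.64, 5.41, 5.46, 6.68 and 5.11 CPM in Induced. Control 1 to 4 were all below every Induced library, and Control 5 was as high as Induced 3. SMG5 rose by 0.95 on the log2 scale (SE 0.26, adjusted p = 0.0208), from 3.02 ± 1.38 to 5.86 ± 0.74 CPM (SD, n = 5 each).

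Parental SMG5 was at 16.6, 10.36 and 7.79 CPM in No Dox and at 8.22, 7.58 and 4.89 CPM in With Dox, from 6 to 27 counts per library. It fell under the mean count of 20 required for testing there. With no such filter the log2 fold change was −0.63 ± 0.65 (SE, adjusted p = 0.876). The difference between the responses of the lines, fitted over all 16 libraries, was 1.44 ± 0.48 (SE, 0.44 to 2.44), the only one of the 9 with an unadjusted p below 0.05 (0.00744), and its adjusted p was 0.0839. DESeq2 called it (adjusted p = 0.0409), as did edgeR without Control 5 (adjusted p = 0.015) and edgeR with total counts (adjusted p = 0.0496). It stayed above the threshold without any one of the other 15 libraries (adjusted p 0.0526 to 0.172). Over all genes, this test between the lines called 2.98%, against 12.1% with DESeq2, 18.9% without Control 5 and 4.13% with total counts. No gene at all was called without Control 1, 2 or 4, Induced 1, 3 or 4, No Dox 1 or With Dox 1.

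In the clone, the log2 ratio of SMG5 to SMG6, whose products act in the alternative routes from phosphorylated UPF1, was −4.56, −4.67, −4.57, −4.40 and −2.92 in Control and −2.41, −3.14, −2.61, −2.64 and −2.93 in Induced. Control 5 was the only Control above any Induced library. This ratio too was chosen with its values known and is not tested.

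**Figure D2:**
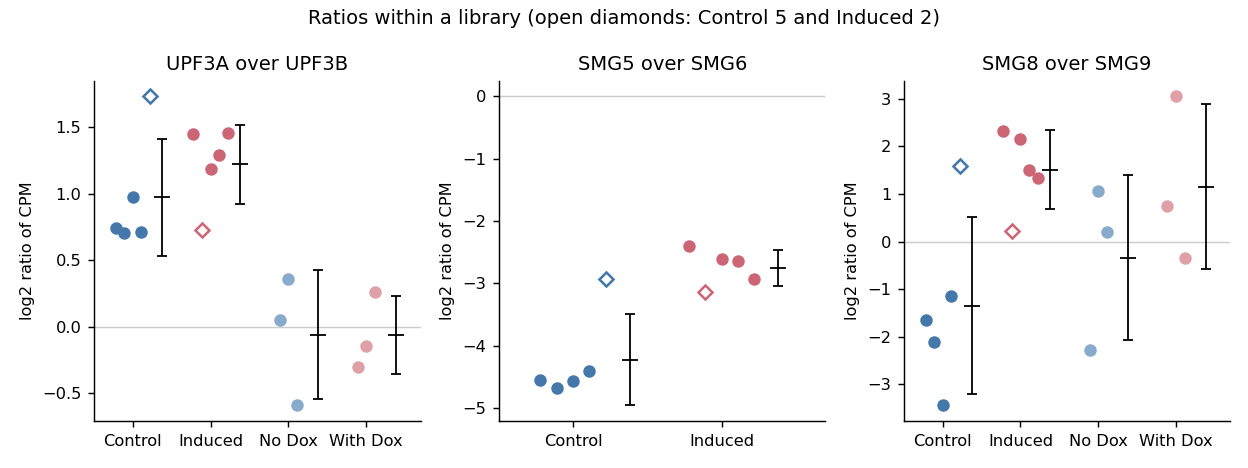
Ratios of paired factors within each library, as the difference of log2 CPM on the y axis, for UPF3A over UPF3B, SMG5 over SMG6 (transgene line only) and SMG8 over SMG9. Symbols are single libraries, open diamonds are Control 5 and Induced 2, and black marks are the mean with SD; the SMG8 over SMG9 ratio is below 0 in Control 1 to 4 and above 0 in all 5 Induced libraries.

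Leaving out Control 5 and Induced 2 raised the number of called factors to 4, with log2 fold changes of 1.30 for SMG5, −0.64 for SMG6, 2.67 for SMG8 and −1.16 for SMG9. The others remained uncalled, at −0.15 for UPF2, 0.33 for UPF3A, −0.23 for UPF3B and 0.13 for SMG1. The share of all genes called rose with it to 64.3% (33.8% higher and 30.5% lower). The calls of SMG5 and SMG9 were lost with 1 surrogate variable (adjusted p = 0.0962 and 0.134), and that of SMG9 also with GC offsets and a replicate block together (log2 fold change −0.64, adjusted p = 0.057). Both were also lost without some single libraries: SMG5 had an adjusted p of 0.0512 without Control 1, 0.0533 without Control 2, 0.0531 without Induced 1 and 0.0531 without Induced 4, and SMG9 had 0.05002 without Control 2, 0.054 without Induced 1, 0.0521 without Induced 3 and 0.0519 without Induced 4. The fits without these single libraries called 14.3% to 19.6% of all genes, beside 39.8% in the reported fit. Across all 19 alternatives the directions held, with log2 fold changes of 0.65 to 1.34 for SMG5, −0.64 to −0.22 for SMG6, 0.69 to 2.67 for SMG8 and −1.16 to −0.36 for SMG9.

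**Figure D3:**
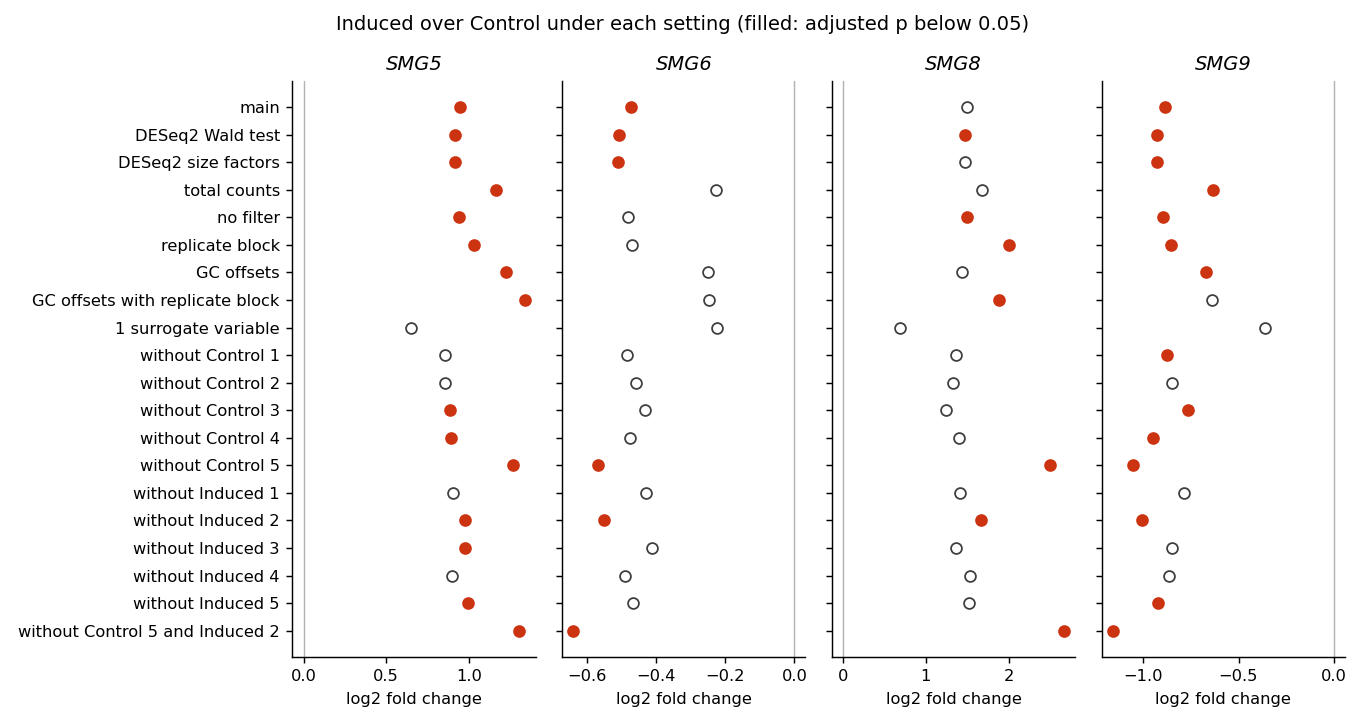
Log2 fold change of Induced over Control for SMG5, SMG6, SMG8 and SMG9 (x axis, one scale per panel) under the reported fit, named main, and 19 alternatives (y axis). Filled symbols have an adjusted p below 0.05; no symbol crosses 0, while SMG6 is filled in 5 alternatives and SMG8 in 7.

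In the parental cells 0 of the 8 tested mRNAs were called, and 0.00% of the 9124 genes tested were called by edgeR (267 had an unadjusted p below 0.05, and DESeq2 called 1). None of the 8 had an unadjusted p below 0.05. The standard errors were 0.40 to 0.69 on the log2 scale, against 0.16 to 0.59 in the transgene line, and the parental intervals of SMG6 (−1.51 to 0.48) and SMG9 (−1.56 to 0.50) hold the changes fitted in the clone, so that changes of that size are not excluded in parental cells. The test of a difference between the lines called 2.98% of 12265 genes and 0 of the 9 factors. For the factors other than SMG5 it ranged from −0.59 for SMG9 and −0.58 for UPF1 (−1.38 to 0.23) to 0.55 for SMG1 (−0.61 to 1.71) and 0.56 for SMG8.

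**Figure D4:**
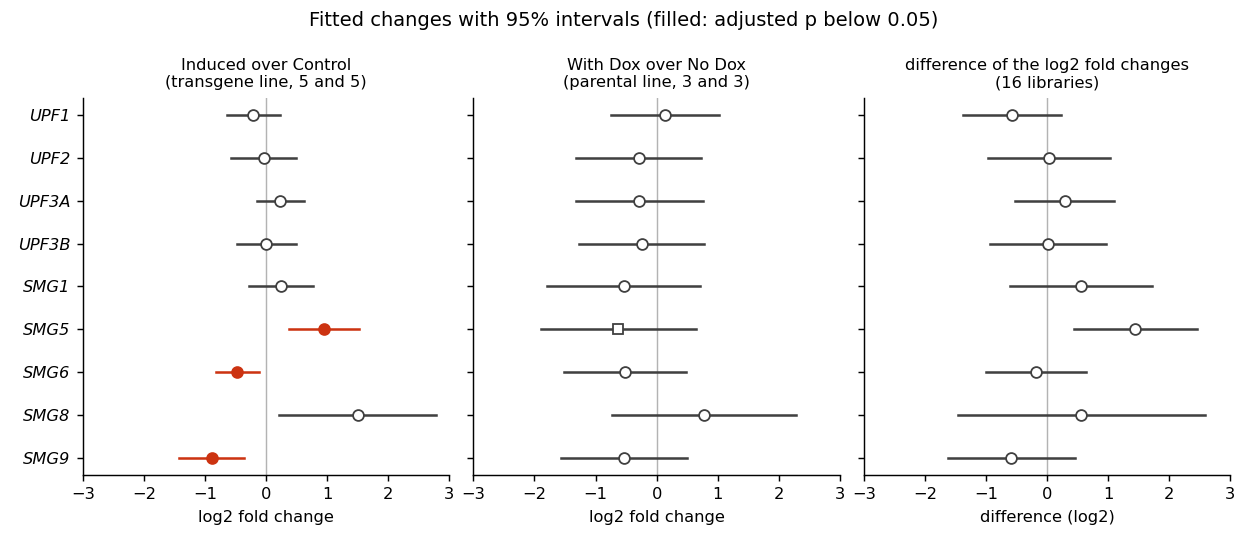
Fitted log2 fold changes (x axis) with 95% intervals for the 9 factors with induction of the transgene (left), with doxycycline in parental cells (middle) and for the difference of these responses (right). Filled symbols have an adjusted p below 0.05, and the square is SMG5 in the parental line fitted with no filter; only SMG5, SMG6 and SMG9 are filled, all in the transgene line.

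Set on 1 scale over all 16 libraries, UPF3A was the only one of the 9 for which neighbouring groups in the order of means did not overlap. Its order was Induced, Control, No Dox and With Dox, and every transgene library (lowest 35.45 CPM) was above every parental one (highest 31.84 CPM). With each line scaled on its own, as in the values above, the lowest transgene library (34.79 CPM) was below the highest parental one (36.9 CPM), so this separation depended on the scaling. The means of SMG5 and SMG1 were ordered No Dox, With Dox, Induced and Control, those of UPF1, UPF3B and SMG6 had Control first and Induced next, those of UPF2 and SMG9 had Control first and No Dox next, and SMG8 was highest in With Dox and lowest in Control. In each of these orders neighbouring groups overlapped. The clone, the instrument and the depth differ between the lines and cannot be told apart in these comparisons.

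For 8 of the factors, the gene outside the 9 with the most similar log2 CPM over the 10 transgene libraries was found, as a description across libraries that share their groups and depth. The highest correlation was 0.999 for SMG8 with CDKN2D, an inhibitor of cyclin-dependent kinases. SMG9 was matched most closely by SPPL2B (Pearson r = 0.996), SMG6 by SYTL4 (0.993), SMG5 by APPL1 (0.992) and UPF1 by YWHAH (0.981). For UPF3A it was COIL (0.975), for UPF2 BDP1 (0.967) and for SMG1 SYNJ2BP (0.922). Each is the largest of all correlations with the genes tested, and none is given a test.

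The exon junction complex, which marks spliced mRNAs and is contacted by UPF3, was represented by 11 genes. Of these, 1 was lower, 10 were not called and none was called higher, beside 39.8% of all genes tested (20.0% higher and 19.8% lower), with a median log2 fold change of 0.34 beside 0.041 over all genes tested. The lower gene was SAP18, part of the peripheral ASAP complex, at 173.5 ± 16.38 CPM in Control and 123.3 ± 17.77 in Induced (log2 fold change −0.49, adjusted p = 0.0239). Without Control 5 and Induced 2, 4 of the 11 were called higher and 2 lower, beside 64.3% of all genes called in that fit.

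Translation termination factors and other partners of the pathway made up 11 further genes, of which 3 were higher and 2 lower, with a median of 0.029. These 5 calls among 11 are close to the 39.8% called over all genes tested. PNRC2, an adaptor that links UPF1 to decapping, rose from 5.57 ± 3.76 to 24.47 ± 9.97 CPM (log2 fold change 2.13, adjusted p = 0.0176). RUVBL1, an ATPase that maintains SMG1 and related kinases, rose (0.86, adjusted p = 0.0426), and the helicase MOV10, a UPF1 partner, fell from 43.79 ± 8.78 to 26.56 ± 2.83 CPM (−0.72, adjusted p = 0.0176). RUVBL2, the partner of RUVBL1, fell by 0.64 and is named although it was beyond the 4 with the largest changes. Without Control 5 and Induced 2, 4 were higher and 3 lower, the earlier 5 calls among them, beside 64.3% of all genes.

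Genes with transcripts known as NMD targets were followed as a list of 20. Of these, 7 were higher, 4 lower and 9 not called, with a median of 0.10, beside 39.8% of all genes called. Counts are per gene, so a target isoform cannot be told from other isoforms of the same gene. The small nucleolar RNA host gene ZFAS1 rose from 91.68 ± 99.84 to 283.2 ± 116.8 CPM (log2 fold change 1.63, adjusted p = 0.0477), while SNHG1, a host gene of the same kind, fell from 351.6 ± 184.3 to 123.1 ± 55.28 CPM (−1.51, adjusted p = 0.0177). GADD45B, a stress gene, rose (1.12, adjusted p = 0.0425), as did SNHG15 (1.08, adjusted p = 0.0411). GAS5, also a host gene, was at 48.52 ± 5.73 CPM in Control and 50.36 ± 11.97 in Induced and was not called (0.054, adjusted p = 0.814). Without Control 5 and Induced 2, 9 were higher and 5 lower, and the 11 earlier calls were among them, beside 64.3% of all genes called in that fit. None of the genes tested from the 3 lists was called in the parental cells, where 0 of all 9124 genes tested were called. In the test between the lines 1 of them, SAP18, was called, beside 2.98% of all genes. Its difference in log2 fold change was −1.64 (SE 0.41, adjusted p = 0.0454). This call was lost without Control 1, 2 or 4, Induced 1, 3 or 4, No Dox 1 or With Dox 1, where no gene at all was called. In parental cells SAP18 had an uncalled log2 fold change of 0.92 (edgeR, adjusted p = 0.997), against −0.49 with induction.

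**Figure D5:**
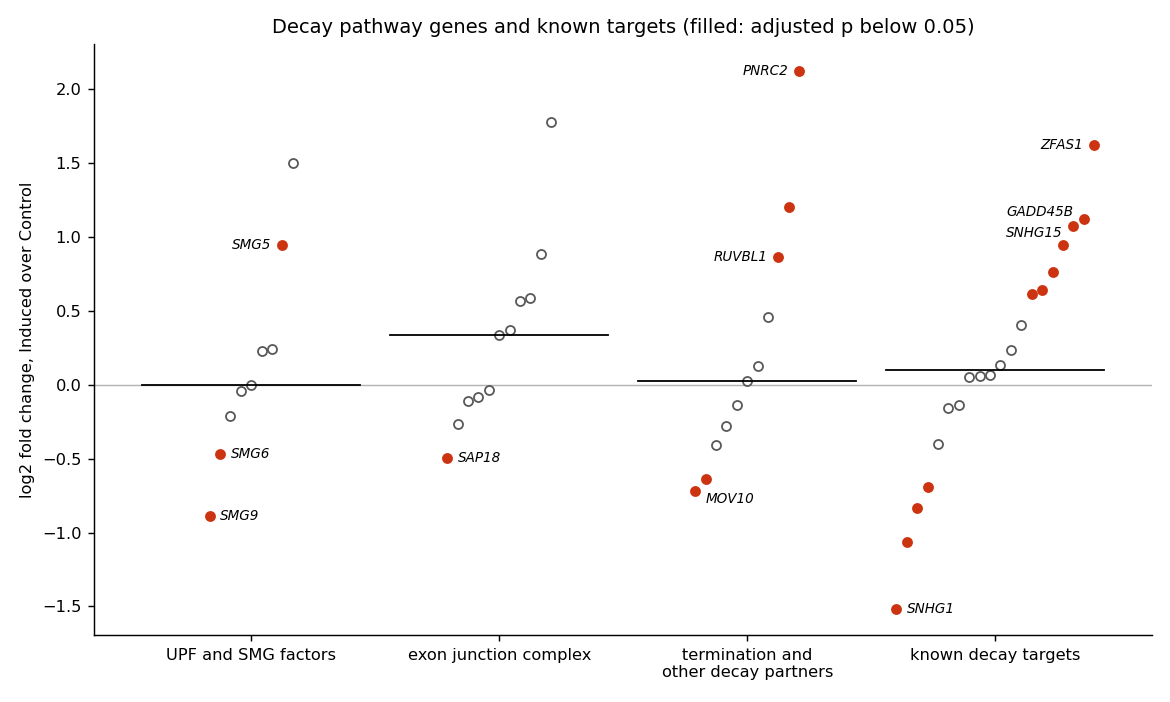
Log2 fold change of Induced over Control (y axis) for the 9 UPF and SMG factors and 3 lists of decay pathway genes and known targets (x axis). Each circle is 1 gene, filled where the adjusted p is below 0.05, with up to 4 called genes named per list; black lines are list medians, which lie between 0.0027 and 0.34.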

How the data were processed

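Deposited files gave, for each of 16 libraries, counts per Ensembl gene that the authors had made from QuantSeq REV 3′ tag reads of cytoplasmic RNA with the Lexogen pipeline on GRCh38. Aligner, annotation release, strand setting and treatment of duplicate reads are not given in the sources used here. Each file also listed 92 spike-in entries, all at 0, and 5 summary entries, which were left out. In the summary entries, reads outside genes came to 0.0744 to 0.106 per gene count in the transgene line and 1.11 to 1.50 in the parental line. Growth notes stored with every library mention doxycycline (1 μg/ml, 48 h after splitting), so the groups follow the titles. The study describes the replicates as biological replicates (clone) and as separate cultures (parental line). No pair of libraries was alike within sampling noise.

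Symbols, positions and GC content came from GENCODE 44 (56104 genes named), and start sites from RefSeq. Genes with a mean count above 20 (DESeq2 size factors, within each comparison) were fitted with edgeR 4.0.16 (TMM, quasi-likelihood F test) in R 4.3.3, and p-values were adjusted by Benjamini-Hochberg over all genes tested, at 0.05. Levels in CPM use the TMM factors of each line's own fit, and ratios use log2 CPM with a prior count of 2. The tests were run first on simulated counts. Alternatives were DESeq2 1.42.0, other scaling, no filter, GC offsets (lowess span 0.5), a replicate block, 1 surrogate variable (sva 3.50.0) and leaving out libraries; leaving out Control 5 and Induced 2 together was chosen after the data were seen. Each of the 9 genes is named, and from each other list up to 4 called genes with the largest change. Results for 1 listed gene and 1 nearest gene are not reported here. The genes and lists were chosen with earlier results of these data known.

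Replicate numbers were checked for pairing: deviations of same-numbered libraries correlated at −0.373 to 0.625 in the transgene line and −0.42 to 0.237 in the parental line, so numbers were not taken as pairs.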

Additional observations from a re-analysis of the deposited data

Results flagged for a closer look

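In 18 groups of 5 libraries (9 factors, Control and Induced), 3 had 1 library far from the rest on the log2 scale, where chance flags about 1 group in 20. The factors share the same libraries, so these groups are not independent and the number flagged cannot be judged against that rate. The flags of UPF1 and SMG5 both fell on Control 5. UPF1 in Control 5 was at 38.22 CPM, below the next lowest Control at 55.66 CPM. SMG5 in Control 5 was at 5.467 CPM, above the next Control at 2.612 CPM. UPF2 in Induced 5 was at 14.78 CPM, below the next lowest Induced library at 31.28 CPM.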

How the results depend on the processing

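The count of called factors in the transgene line, 3, was 4 with DESeq2, 3 with a replicate block (SMG5, SMG8 and SMG9, in place of SMG6), 2 with total counts or GC offsets (SMG5 and SMG9), 2 with GC offsets and the block together (SMG5 and SMG8) and 0 with 1 surrogate variable, which left 1 of all 13038 genes called. Of all genes, these fits called 45.7% (DESeq2), 39.8% (replicate block), 41.6% (total counts), 26.7% (GC offsets) and 31.1% (GC offsets with the block). Without single libraries the count of called factors was 0 to 4, beside 14.3% to 58.5% of all genes called. Total counts moved the median of all genes from 0.041 to 0.28 and the calls to 4022 higher and 1401 lower, from 2604 and 2579. Small log2 changes turned sign. UPF3B was −0.034 with DESeq2, −0.035 with its size factors, −0.0074 with no filter, −0.033 with the replicate block, −0.36 with GC offsets and −0.39 with both, and −0.23 to 0.15 when libraries were left out, the lower value without Control 5 and Induced 2. UPF1 was 0.038 (total counts), 0.17 (GC), 0.16 (GC with block) and 0.095 (surrogate variable). UPF2 was 0.20 and 0.18 with total counts and the surrogate variable, and −0.15 to 0.14 when libraries were left out. SMG1 was −0.043 and −0.041 with GC offsets, alone and with the block.

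For the difference between the lines, 1 factor (SMG5) was called by DESeq2, with total counts, without Control 5 and without Control 5 and Induced 2, and 0 to 1 without single libraries. Total counts gave 0.021 for UPF1, 0.44 for SMG6 and 0.078 for SMG9. The replicate block gave −0.084 for UPF2 and −0.024 for UPF3B, and GC offsets −0.18, −0.17 and 0.11 for UPF2, UPF3B and SMG6. With libraries left out, it ranged from −0.20 to 0.44 for UPF2, −0.26 to 0.38 for UPF3B and −0.39 to 0.16 for SMG6. Over all genes, 365 were called, against 1489 by DESeq2, 236 with its size factors, 222 with the replicate block, 150 with no filter, 0 to 2290 without single libraries and 3040 without Control 5 and Induced 2. The corresponding calls for induction, 5183, were 1869 to 7604 without single libraries and 8329 without both.

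In parental cells, leaving out libraries gave log2 changes of −0.49 to 0.13 for UPF2, −0.45 to 0.20 for UPF3A, −0.42 to 0.13 for UPF3B and −0.80 to 0.23 for SMG1, with 0 factors called in all 14 alternatives. There 0 genes were called, against 10 with no filter. The UPF3A to UPF3B difference ranged from 0.18 to 0.56 in the clone (0.44 without Control 5) and from −0.27 to 0.21 in parental cells, and the replicate block (sign flips within numbers) gave an exact p of 0.312 in the clone. The cause of these shifts was not tested.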
